A study of Mus musculus with 15 samples.

Results

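The insulin-like growth factor 1 (IGF1) axis was described here through 10 genes of the 30672 in the count table: the ligand Igf1, its receptor Igf1r, the binding protein genes Igfbp2, Igfbp3, Igfbp4, Igfbp5, Igfbp6 and Igfbp7, and the receptor substrates Irs1 and Irs2. The 10 genes were found by matching Ensembl identifiers to symbols on GRCm38, and all 10 passed the filter on low counts, as did 15533 genes in all. RNA came from the tibialis anterior, a fast muscle of the lower leg, of male 129Pas mice aged 7 weeks. Mtm1-/y mice carry the mutated Mtm1 on their only X chromosome. They were labelled as without tamoxifen (Mtm1-/y, n = 4) or with it (Mtm1-/y + TAM, n = 3), as were wild-type mice (WT and WT + TAM, n = 4 each). Tamoxifen (TAM) is a ligand of the estrogen receptor. Mtm1 encodes myotubularin, a lipid phosphatase that removes a phosphate from phosphoinositides and whose loss causes X-linked myotubular myopathy. The sources used here give neither the dose, route and duration of tamoxifen, nor the treatment of the mice without it, nor how the Mtm1 allele was made.

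IGF1 is made in the liver under growth hormone and also locally in muscle, where it acts on fibres and on satellite cells. It binds the tyrosine kinase receptor encoded by Igf1r, which phosphorylates the docking proteins IRS1 and IRS2 and so recruits PI3K, AKT and mTOR, the pathway best known for raising protein synthesis in muscle. The secreted IGF binding proteins hold IGFs in the circulation or in the matrix, and release them when proteases cut them.

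Libraries held between 18042558 and 45823277 counts, and values are given as counts per 1000000 counts (CPM) scaled by TMM factors. A gene was called where the adjusted p of edgeR's quasi-likelihood test was under 0.05. Mtm1 itself was at 15.3 ± 0.294 CPM (SD, n = 4) in WT and 16.3 ± 1.88 in WT + TAM, against 3.36 ± 0.338 in Mtm1-/y and 3.49 ± 0.381 in Mtm1-/y + TAM (n = 3), with no overlap between genotypes. Summed markers of skeletal muscle fibres were 197180 to 261850 CPM in WT, 200560 to 230320 in WT + TAM, 168730 to 210150 in Mtm1-/y and 173600 to 179740 in Mtm1-/y + TAM. Replicate 1 of Mtm1-/y and replicate 1 of WT + TAM stood apart from the rest of their groups on the principal components of all genes. Many of the values that rest on either, but not all, are given with and without it.

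The promoters of Igfbp2, Igfbp5 and Igf1 are shown because WT and Mtm1-/y did not overlap for these genes, Igfbp2 lying above WT and the other two below it, and because Igfbp2 and Igfbp5 are neighbours on chromosome 1. Igfbp2 runs on the plus strand from 72824503 to 72852474 and Igfbp5 on the minus strand from 72857932 to 72874884 (GRCm38), so that the genes face each other end to end with 5457 bases between them. Igf1 lies on the plus strand of chromosome 10, from 87858265 to 87937042. The RefSeq start used for Igf1 lies within these bounds, so its window is inside the gene. Bases before 87858265 were not searched, and the motif and GC values of Igf1 describe the inner start alone. Each line below holds the 250 bases before a RefSeq transcription start (GRCm38.p6), 5′ to 3′ on the strand of the gene, with the 6-letter E-box CANNTG in capitals. RefSeq held 2 starts for Igfbp2, and the second window (72825137 to 72825386), not shown, had 1 E-box and a GC content of 56.4%.
Igfbp2, chr1:72824230-72824479, plus strand: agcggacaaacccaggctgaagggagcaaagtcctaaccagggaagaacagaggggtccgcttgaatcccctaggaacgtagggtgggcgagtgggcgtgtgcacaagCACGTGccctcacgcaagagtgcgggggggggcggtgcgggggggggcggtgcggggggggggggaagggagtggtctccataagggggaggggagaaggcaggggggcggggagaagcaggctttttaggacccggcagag
Igfbp5, chr1:72874866-72875115, minus strand: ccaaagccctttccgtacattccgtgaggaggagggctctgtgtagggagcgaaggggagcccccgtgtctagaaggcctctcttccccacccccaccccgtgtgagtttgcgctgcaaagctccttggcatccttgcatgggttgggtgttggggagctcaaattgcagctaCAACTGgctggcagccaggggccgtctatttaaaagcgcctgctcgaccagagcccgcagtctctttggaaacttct
Igf1, chr10:87860861-87861110, plus strand: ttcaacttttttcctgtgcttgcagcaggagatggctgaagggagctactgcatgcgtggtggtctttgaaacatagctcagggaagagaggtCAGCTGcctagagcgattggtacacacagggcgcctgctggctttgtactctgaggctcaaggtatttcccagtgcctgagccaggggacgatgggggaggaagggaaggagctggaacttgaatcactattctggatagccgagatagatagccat
Each of these windows held 1 E-box, as did those of 8 of the 10 genes, beside 66.2% of 32851 mouse promoter windows of the same length. TATAAA was found before 2 of the 10 genes, Igfbp4 and Igfbp6, beside 12.4% of all windows. The FOXO letters GTAAACA (3.17% of all windows), the cyclic AMP element TGACGTCA (1.55%) and the estrogen response element (GGTCA and TGACC set 3 bases apart, 0.0639%) were found before none of the 10, both strands being searched. The GC content was 67.2% before Igfbp2 in the window shown, 58.8% before Igfbp5 and 52.8% before Igf1, beside a median of 52.4% for all windows.

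Igf1, the ligand, was lower in Mtm1-/y than in WT muscle. It was at 28.2, 19.0, 22.6 and 15.7 CPM in the WT libraries and at 2.54, 11.1, 9.82 and 9.25 CPM in the Mtm1-/y libraries, replicates 1 to 4. Every mutant library lay below every WT library, and replicate 1 of Mtm1-/y was the lowest of all 15. The fitted log2 fold change was -1.39 ± 0.47 (SE), a ratio of 0.381, with an adjusted p of 0.0378 (edgeR). Without replicate 1 of Mtm1-/y the log2 difference was -1.09 and the adjusted p 0.0659, so that the call was lost while the groups stayed apart.

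With tamoxifen, the Igf1 level of WT mice split into a higher and a lower pair. Replicates 1 and 2 of WT + TAM were at 15.3 and 15.3 CPM and replicates 3 and 4 at 5.33 and 4.46 CPM. The Mtm1-/y + TAM libraries, at 5.67, 8.90 and 5.34 CPM, lay below the higher pair. The lowest of them was level with replicate 3 of WT + TAM. The genotypes therefore overlapped under tamoxifen, with a log2 difference of -0.59 ± 0.51 (adjusted p 0.46). Without replicate 1 of WT + TAM the difference was -0.3 ± 0.535 (adjusted p 0.731). All 4 WT + TAM libraries were below the lowest WT library, yet the difference of -1.09 ± 0.46 on the log2 scale was not called (adjusted p 0.395). Group means ran from 21.4 ± 5.34 CPM in WT to 10.1 ± 6.04 in WT + TAM, 8.18 ± 3.85 in Mtm1-/y and 6.63 ± 1.97 in Mtm1-/y + TAM, and neither WT + TAM against WT nor Mtm1-/y + TAM against Mtm1-/y was called. The genotype differences with and without tamoxifen were themselves compared by the interaction term, 0.80 ± 0.68 (adjusted p 0.687).

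**Figure D1:**
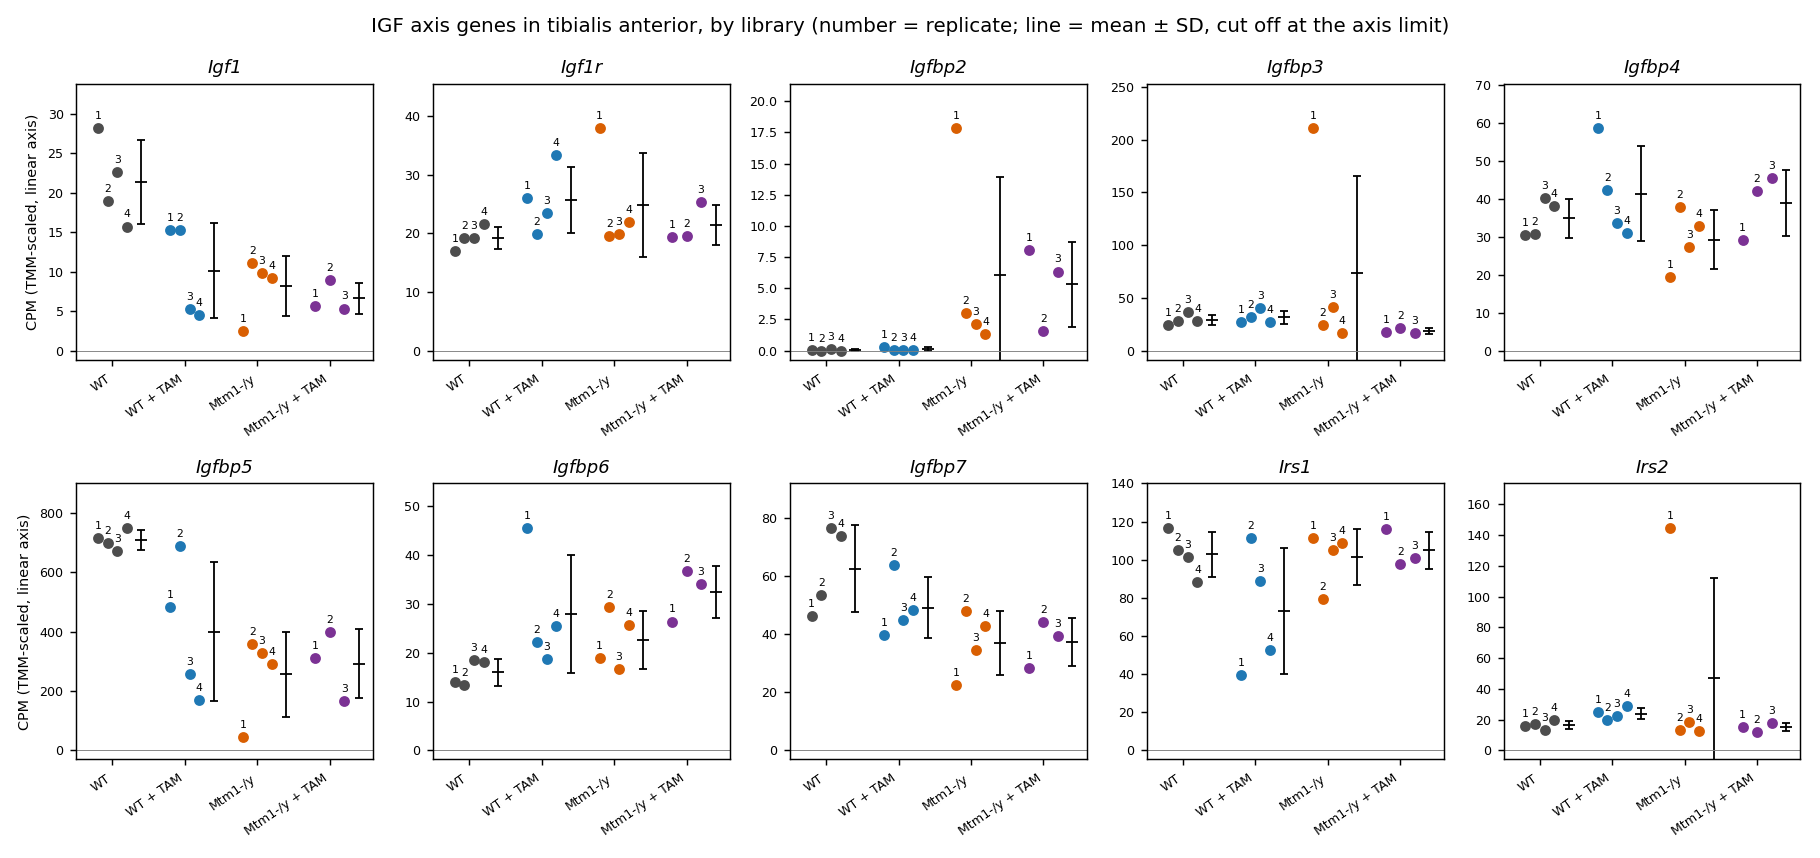
CPM of each of the 10 genes (vertical axis, linear, own scale per panel) in the 15 libraries, by group (horizontal axis, colour), with the replicate number above each point and the group mean ± SD as a line beside it. Igf1 and Igfbp5 lie lower in every Mtm1-/y library than in any WT library, Igfbp2 is near 0 in both WT groups, and replicate 1 of Mtm1-/y is the highest point for Igf1r, Igfbp2, Igfbp3 and Irs2.

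Igf1r, the receptor gene, showed no called difference in any comparison. Its level was 17.0 to 21.6 CPM in WT, 19.9 to 33.4 in WT + TAM, 19.4 to 25.4 in Mtm1-/y + TAM and 19.5 to 22.0 in replicates 2 to 4 of Mtm1-/y, with 38.0 CPM in replicate 1. For Mtm1-/y against WT the log2 fold change was 0.37 (95% interval -0.08 to 0.82, adjusted p 0.188), and 0.09 without replicate 1 of Mtm1-/y. The receptor transcript thus overlapped between the genotypes where the ligand transcript did not.

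Irs1 encodes a docking protein that links the activated receptor to PI3K. Its level was 88.1 to 116.7 CPM in WT and 79.6 to 111.6 in Mtm1-/y, with a log2 fold change of -0.02 (95% interval -0.56 to 0.52, adjusted p 0.959). WT + TAM was the most uneven group, at 39.3, 111.2, 88.7 and 52.4 CPM in replicates 1 to 4, against 97.9 to 116.0 CPM in Mtm1-/y + TAM. Under tamoxifen the genotypes overlapped (log2 fold change 0.53, adjusted p 0.177). Without replicate 1 of WT + TAM the log2 fold change was 0.32 (adjusted p 0.303).

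Irs2, the second substrate and a known target of FOXO factors, was at 13.4 to 19.6 CPM in WT and at 12.9 to 18.4 in replicates 2 to 4 of Mtm1-/y, and at 144.6 CPM in replicate 1. With that library the log2 fold change for Mtm1-/y against WT was 1.52 ± 0.67 (adjusted p 0.104), and without it -0.16 (adjusted p 0.509), the sign turning. Under tamoxifen, all 3 Mtm1-/y + TAM libraries (15.5, 12.2 and 17.8 CPM) lay below all 4 WT + TAM libraries (25.2, 19.8, 22.2 and 28.6 CPM), with a log2 fold change of -0.66 ± 0.72 (adjusted p 0.568). The spread in that fit is shared over the 4 groups and includes the 144.6 CPM of replicate 1. Without that library, which is in neither group compared, the same difference of -0.66 had an SE of 0.17 and an adjusted p of 0.0117, and fitted on the WT + TAM and Mtm1-/y + TAM libraries alone an adjusted p of 0.023.

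Igfbp2 differed most of the 10 genes. It encodes a binding protein with an integrin-binding motif, abundant in fetal tissues and in liver. Only 3, 0, 3 and 0 reads were counted in the WT libraries and 8, 1, 1 and 2 in the WT + TAM libraries, against 682, 75, 68 and 58 in Mtm1-/y and 152, 58 and 252 in Mtm1-/y + TAM. A count of 0 allows up to 3 counts, for counting error only. Every library of either mutant group held at least 58 reads, and no library of either WT group held more than 8.

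In CPM, Igfbp2 stood at 17.8, 3.02, 2.16 and 1.30 in Mtm1-/y replicates 1 to 4 and at 8.06, 1.54 and 6.34 in Mtm1-/y + TAM replicates 1 to 3, so levels also spread widely among mutants. From pooled reads, 883 against 6, Igfbp2 was 130 times higher in Mtm1-/y than in WT (exact 95% counting interval 59.4 to 354). Without replicate 1 of Mtm1-/y, with 201 against 6 reads, the ratio was 40.7 (18.4 to 112). With tamoxifen, at 462 against 12 reads, it was 44.6 (25.3 to 87.0). These intervals cover counting error and not the spread between mice. The fitted log2 fold changes were 6.85 ± 1.23 (adjusted p 0.00131) without tamoxifen and 5.52 ± 1.15 (adjusted p 0.00546) with it, both depending on the prior count since WT held so few reads. The call held with each of the 15 libraries left out in turn in both comparisons, at adjusted p values of at most 0.00595 and 0.021. Between Mtm1-/y + TAM and Mtm1-/y, Igfbp2 overlapped (log2 fold change -0.22 ± 0.81, adjusted p 0.974).

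Igfbp5 was the most abundant of the 10 genes and its neighbour Igfbp2 the least abundant in WT. It encodes a matrix-bound binding protein made by muscle cells as they differentiate. WT libraries held 715, 698, 671 and 749 CPM, a narrow range, and Mtm1-/y libraries 43.8, 359, 329 and 290.4 CPM. Every mutant library was below every WT library. The log2 fold change of -1.47 ± 0.55 nevertheless had an adjusted p of 0.0595, and was not called. It was past the threshold with DESeq2 (adjusted p 0.0357), with limma-voom (0.0287) and with the stricter count filter (0.0478), and with no single library left out (lowest adjusted p 0.0502). Without replicate 1 of Mtm1-/y the difference was -1.12 (adjusted p 0.0593).

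Treated mice showed a wide Igfbp5 range in both genotypes. WT + TAM replicates 1 to 4 were at 484, 689, 257 and 170.1 CPM, against 312, 398 and 167 CPM in Mtm1-/y + TAM. These groups overlapped, with a log2 fold change of -0.45 ± 0.59 (adjusted p 0.642).

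Igfbp7 encodes a binding protein of low affinity for IGFs that is made by vascular endothelium among other cells. It was at 46.2, 53.6, 76.6 and 73.8 CPM in WT and at 22.5, 47.8, 34.5 and 43.0 CPM in Mtm1-/y, where the highest mutant library lay above the lowest WT library. The log2 fold change was -0.76 ± 0.24 (adjusted p 0.0249). Without replicate 1 of Mtm1-/y it was -0.58 and the call was lost (adjusted p 0.0552). Under tamoxifen the levels were 39.8 to 63.9 CPM in WT + TAM and 28.3 to 44.2 CPM in Mtm1-/y + TAM (log2 fold change -0.40 ± 0.26, adjusted p 0.303). The Igfbp7 model shares 85 exon bases with Polr2b on the opposite strand. Irs1 shares 2822 of its 9144 exon bases with Gm9747, and Irs2 shares 162 with 9530052E02Rik, also on opposite strands. Whether HTSeq counted by strand was not stated, so reads in these stretches may have been left out or given to either gene.

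Most endothelial markers were lower too. Of 8 genes on that list, 7 were called lower in Mtm1-/y than in WT, beside 14.9% of all genes. With tamoxifen in both genotypes 5 were called lower, where Igfbp7 was not called, beside 20.1% of all genes called in either direction. The summed level of the list was 511 to 658 CPM in WT, 359 to 621 in WT + TAM, 282 to 399 in Mtm1-/y and 291 to 371 in Mtm1-/y + TAM. Mural cell markers gave 4 lower and 1 higher of 7, beside 14.9 and 15.5% of all genes. Their sums were 865 to 1004 CPM in WT and 575 to 724 in Mtm1-/y. Their part in the Igfbp7 difference was not tested. In bulk muscle, fewer cells of a type and less RNA per cell cannot be told apart.

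Igfbp3 encodes the main IGF carrier of serum, which forms a complex with IGF1 and the acid-labile subunit. It was at 24.7, 27.7, 36.2 and 27.8 CPM in WT and at 211, 24.6, 41.7 and 16.3 CPM in Mtm1-/y. Only replicate 1 of Mtm1-/y exceeded the WT range widely, and the log2 fold change of 1.34 ± 0.62 (adjusted p 0.122) became -0.08 without it (adjusted p 0.853). Under tamoxifen the 3 Mtm1-/y + TAM libraries, at 17.97, 21.3 and 16.5 CPM, lay below all 4 WT + TAM libraries, at 26.7, 31.8, 40.3 and 27.4 CPM. That difference of -0.77 ± 0.68 was not called in the fit of all 15 libraries (adjusted p 0.469). It was called on the WT + TAM and Mtm1-/y + TAM libraries alone (-0.76 ± 0.16, adjusted p 0.0124) and without replicate 1 of Mtm1-/y (adjusted p 0.0493).

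Igfbp4, an inhibitory binding protein cut by the protease PAPP-A, was at 30.4 to 40.2 CPM in WT, 31.0 to 58.7 in WT + TAM, 19.4 to 37.7 in Mtm1-/y and 29.1 to 45.6 in Mtm1-/y + TAM. All groups overlapped, and no comparison was called (adjusted p 0.426 for Mtm1-/y against WT). Igfbp6, which prefers IGF2 over IGF1, was at 13.3 to 18.6 CPM in WT, 18.7 to 45.6 in WT + TAM, 16.6 to 29.3 in Mtm1-/y and 26.4 to 36.7 in Mtm1-/y + TAM. Every WT + TAM library was above every WT library for Igfbp6, with a log2 fold change of 0.81 ± 0.26 that was not called (adjusted p 0.239). Without replicate 1 of WT + TAM, the highest at 45.6 CPM, it was 0.47. For Mtm1-/y against WT the log2 fold change of Igfbp6 was 0.50 ± 0.26, not called (adjusted p 0.155, edgeR). Without replicate 1 of WT + TAM, which is in neither of those groups, it was called (adjusted p 0.0471). Under tamoxifen the genotype difference of Igfbp6 was 0.21 ± 0.27 (adjusted p 0.631). Without replicate 1 of WT + TAM it was 0.55 ± 0.208, still not called (adjusted p 0.0719). The other WT + TAM libraries, at 18.7 to 25.5 CPM, then lay below all Mtm1-/y + TAM libraries.

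Per kilobase of exon, the scale on which genes can be compared, Igfbp5 ranked first in the mean of every group, from 118 ± 5.45 CPM per kb in WT to 42.6 ± 24.0 in Mtm1-/y, and Igfbp7 ranked second in every group, from 51.7 ± 12.4 to 30.6 ± 9.17. In WT they were followed by Igfbp6 at 14.4 ± 2.43, Irs1 at 11.2 ± 1.29, Igfbp3 at 9.29 ± 1.57 and Igfbp4 at 7.89 ± 1.15 CPM per kb, whose neighbours overlapped in range. Irs2 (2.62 ± 0.407), Igf1 (2.16 ± 0.539) and Igf1r (1.15 ± 0.111) were lower, and Igfbp2 was last at 0.028 ± 0.0348. In Mtm1-/y, Igf1 was last at 0.826 ± 0.388 CPM per kb and Igfbp2 stood above it and above Igf1r, at 3.29 ± 4.26. Replicate 1 of Mtm1-/y made up most of that mean. In replicates 2 to 4 Igfbp2 was at 0.703 to 1.64 CPM per kb, overlapping both Igf1r and Igf1.

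The makeup of the binding protein transcripts differed between the WT and Mtm1-/y libraries. Igfbp5 made up 52.6 to 64.4% of the summed CPM per kb of the 6 Igfbp genes in WT, 40.2 to 46.1% in replicates 2 to 4 of Mtm1-/y and 5.87% in replicate 1, where Igfbp3 took 54.2%. In the treated groups Igfbp5 took 26.5 to 55.3% in WT + TAM and 25.3 to 44.9% in Mtm1-/y + TAM. Igfbp6 took 6.36 to 7.87% in WT, 9.64 to 23.2% in WT + TAM, 12.6 to 19.2% in Mtm1-/y and 20.5 to 27.8% in Mtm1-/y + TAM. Igfbp2 took at most 0.1% in any WT or WT + TAM library and 0.544 to 7.77% in the mutants. The 6 genes together summed to 201 ± 17.3 CPM per kb in WT, 152 ± 48.0 in WT + TAM, 127 ± 11.5 in Mtm1-/y and 126 ± 23.3 in Mtm1-/y + TAM, and the WT and Mtm1-/y ranges (185 to 220 and 119 to 144) did not overlap. Shares add up to a fixed total, so that a fall of Igfbp5 raises the other shares.

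**Figure D2:**
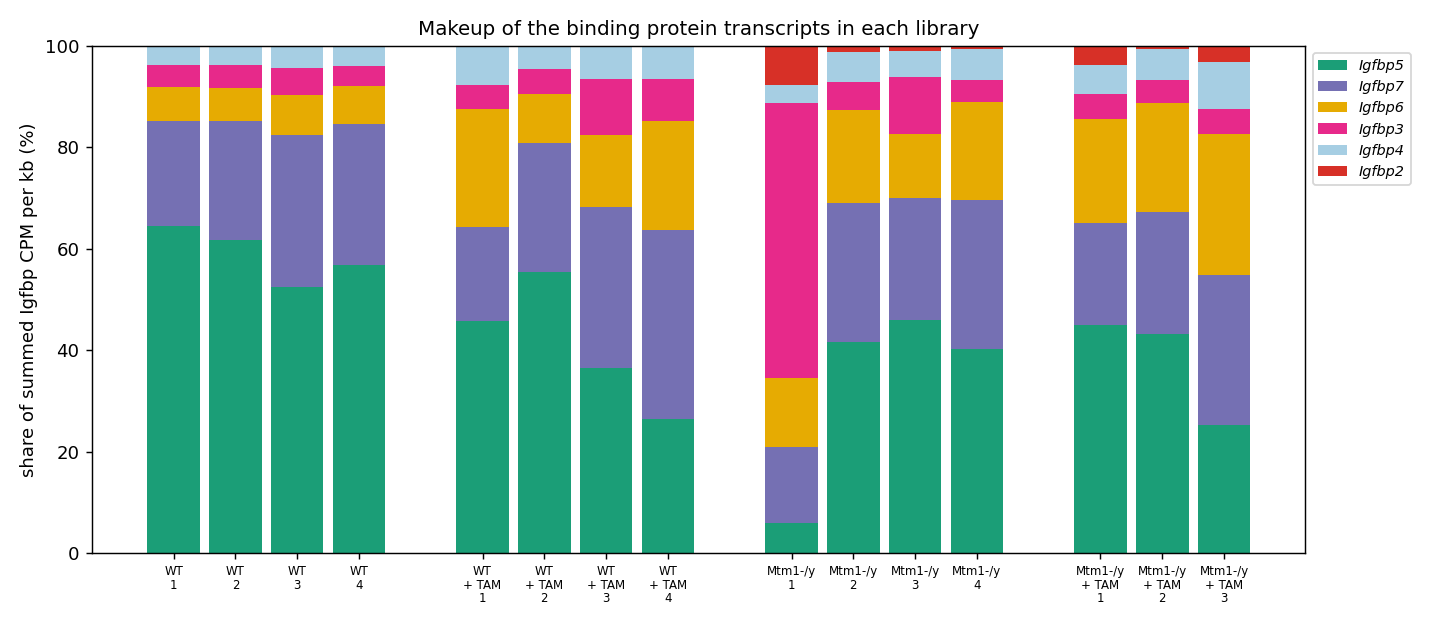
Share of each of 6 Igfbp genes in their summed CPM per kb of exon (vertical axis, percent), 1 bar per library, grouped by genotype and treatment. Igfbp5 takes over 50% in all 4 WT libraries and under 50% in all 7 mutant libraries, while WT + TAM spans 26.5 to 55.3%. Replicate 1 of Mtm1-/y is mostly Igfbp3.

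Of the 10 genes, 3 were called between Mtm1-/y and WT, Igfbp2 higher and Igf1 and Igfbp7 lower, beside 30.4% of all genes tested (15.5% higher and 14.9% lower). Groups did not overlap for 3, Igf1, Igfbp2 and Igfbp5, beside 30.5% of all genes. With tamoxifen in both genotypes, 1 of 10 was called, Igfbp2, beside 20.1% of all genes, and groups did not overlap for 3, Igfbp2, Igfbp3 and Irs2, beside 31.6%. Igfbp2 was called in the same direction in both comparisons, which have no library in common, beside 13.8% of all genes. The shares of called members were thus close to or below those of all genes. Their median log2 fold changes were 0.17 and -0.33, against 0.0005 and -0.02 over all genes.

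**Figure D3:**
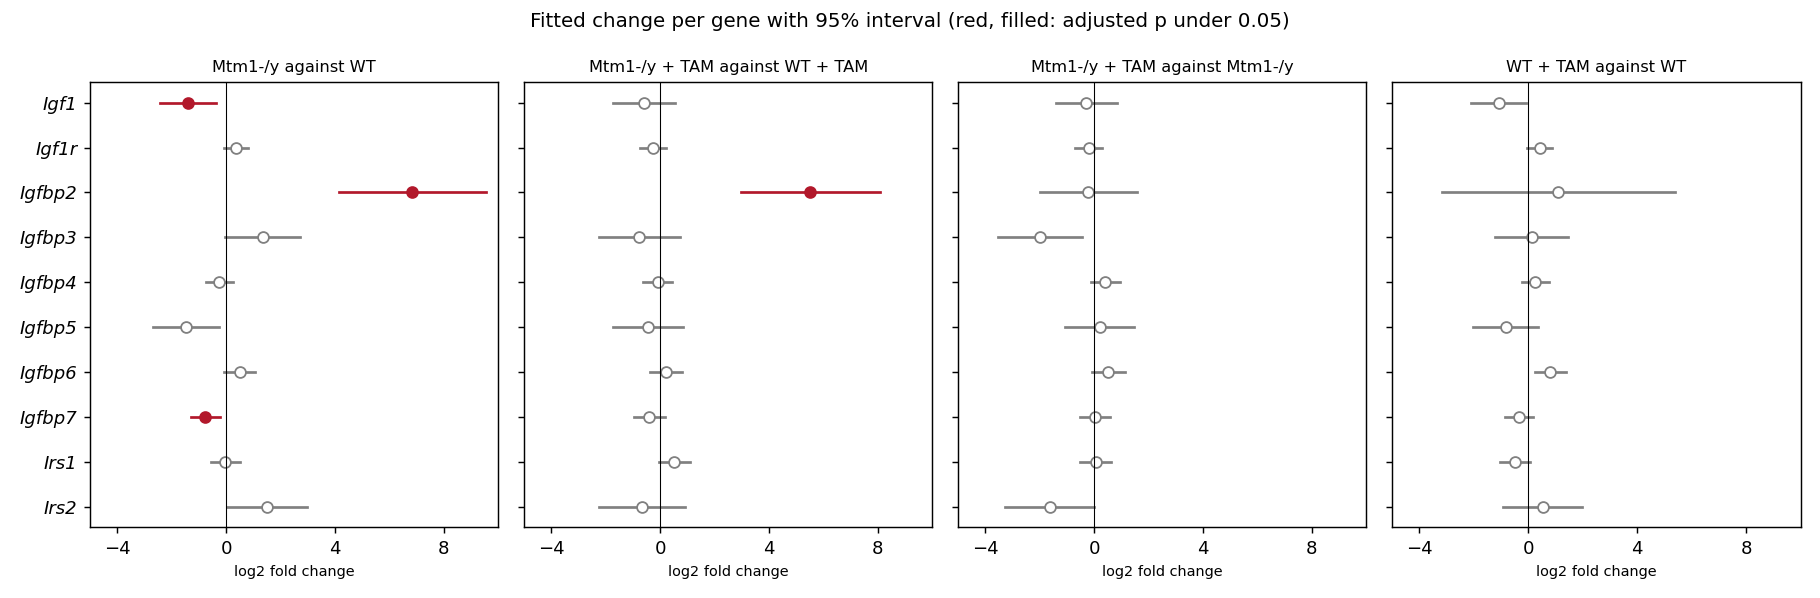
Fitted log2 fold change of each gene (horizontal axis) with its 95% interval in 4 comparisons, red and filled where the adjusted p was under 0.05. Igfbp2 is called in both genotype comparisons, Igf1 and Igfbp7 in Mtm1-/y against WT, and none of the 10 in the tamoxifen comparisons.

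Tamoxifen within a genotype gave no called member. In Mtm1-/y + TAM against Mtm1-/y, edgeR called 0 of 10, beside 0.0129% of all genes (2 genes), and so did DESeq2 and limma-voom. At an unadjusted p under 0.05 there were 2, Igfbp3 (log2 fold change -1.98, p 0.0151) and Irs2 (-1.64, p 0.0455), beside 5.54% of all genes. Both rest on replicate 1 of Mtm1-/y, without which they were -0.56 and 0.04. No member had groups that did not overlap, beside 5.71% of all genes.

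In WT + TAM against WT, edgeR called 0 of 10, beside 0.309% of all genes, as did DESeq2 and limma-voom. An unadjusted p under 0.05 was reached by 2, Igf1 (p 0.0348) and Igfbp6 (p 0.00707), beside 11.3% of all genes. Groups did not overlap for 3, Igf1, Igfbp6 and Irs2, beside 8.08%. For Irs2 the levels were 13.4 to 19.6 CPM in WT and 19.8 to 28.6 in WT + TAM (log2 fold change 0.53, adjusted p 0.815). These comparisons share their control libraries with the genotype comparisons.

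The genotype by tamoxifen interaction, the test of whether the tamoxifen difference was unequal between genotypes, was called for 0 of 10 members and 0% of all genes by edgeR, and for 0 members by DESeq2 and limma-voom. Its unadjusted p was under 0.05 for 2, Igfbp3 (-2.10, p 0.0407) and Irs2 (-2.18, p 0.0464), beside 10.6% of all genes. Both rest on replicate 1 of Mtm1-/y, without which they were -0.69 and -0.50 (adjusted p 0.62 and 0.575).

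Replicate 1 of Mtm1-/y decided several of the values above. Among the 15 libraries it was the highest for 4 members (Igf1r, Igfbp2, Igfbp3 and Irs2) and the lowest for 4 (Igf1, Igfbp4, Igfbp5 and Igfbp7). Set against the mean of the other 3 Mtm1-/y libraries, it held 9.78 times as much Irs2, 8.25 times as much Igfbp2 and 7.65 times as much Igfbp3, and 0.252 times as much Igf1 and 0.134 times as much Igfbp5. Its summed fibroblast markers were 373 CPM, against 1029 to 2002 in the other Mtm1-/y libraries, and its satellite cell and myoblast markers 140.8 against 72.8 to 117. Their part in these values was not tested. Without it, 1 of 10 members, Igfbp2, was called in Mtm1-/y against WT, beside 29.6% of 15286 genes in the same fit, and 3, Igfbp2, Igfbp3 and Irs2, in Mtm1-/y + TAM against WT + TAM, beside 26.8%.

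**Figure D4:**
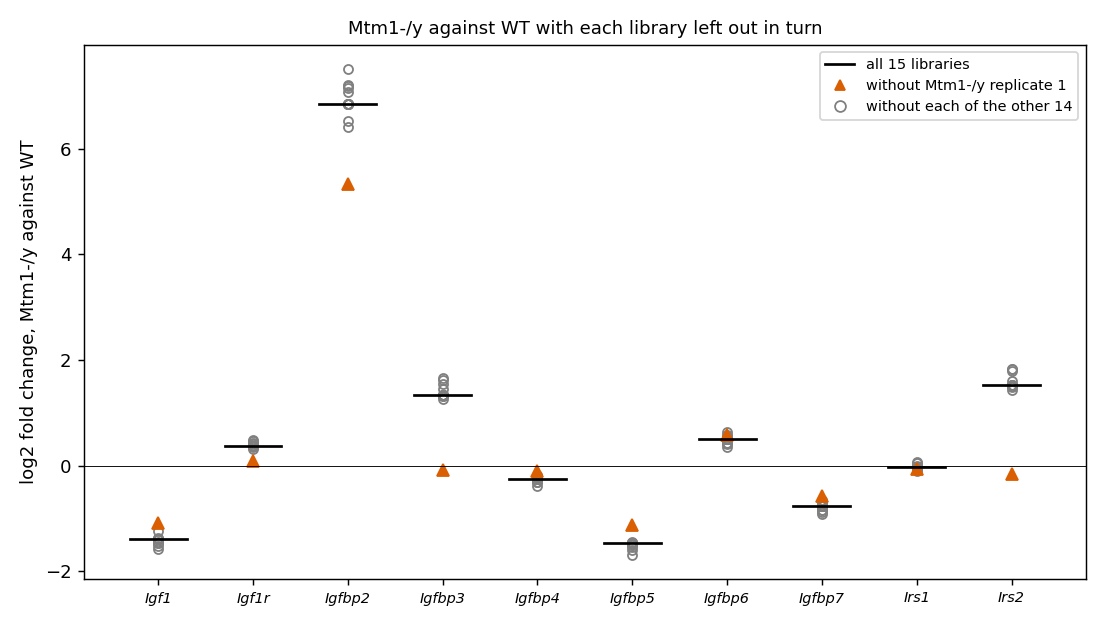
Log2 fold change of each gene for Mtm1-/y against WT (vertical axis) in the fit of all 15 libraries (line), without replicate 1 of Mtm1-/y (orange triangle) and without each of the other 14 libraries (grey circles). Without replicate 1 of Mtm1-/y, Igfbp3 and Irs2 fall to -0.08 and -0.16, while Igfbp2 stays at 5.33 and Igf1 and Igfbp5 at -1.09 and -1.12.

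Igf1 and Igfbp5 followed each other over the libraries. The 4 libraries with the least Igf1, which were replicate 1 of Mtm1-/y, replicates 3 and 4 of WT + TAM and replicate 3 of Mtm1-/y + TAM, were also the 4 with the least Igfbp5. After each gene was centred on its own mean log2 CPM, Igfbp5 had the smallest root mean square difference from Igf1 of 11057 genes at a mean log2 CPM of 1 or more (0.412 on the log2 scale over 15 libraries). Genes outside the 10 that came next to Igf1 were Casp12 (0.469) and Efhd1 (0.476). For Igfbp7 the nearest were Kctd17 (0.141) and Pea15a (0.156), and for Igfbp2 Srrm4os (1.12) and Ctxn3 (1.15), a looser match beside Igfbp2's own SD of 2.69. All 15 libraries enter this measure, group differences included.

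**Figure D5:**
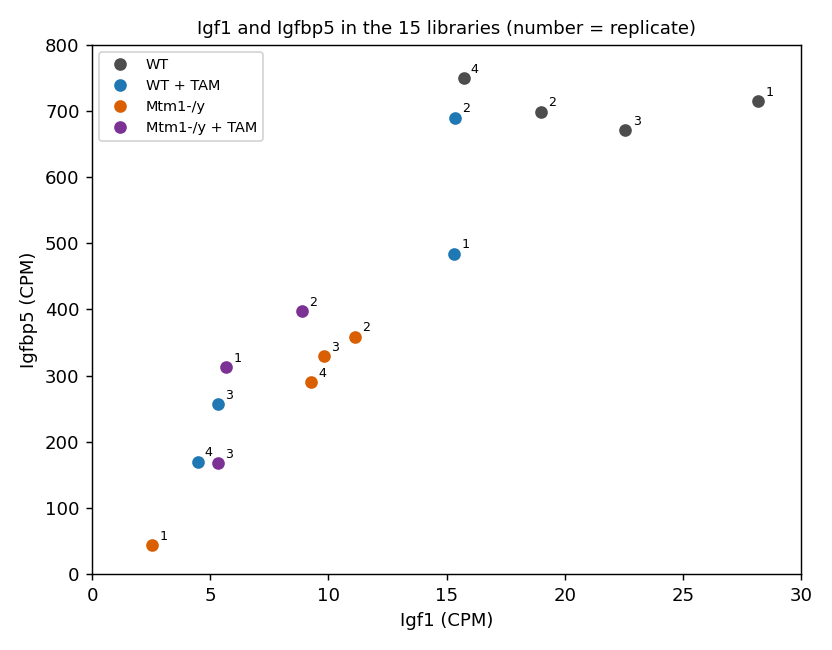
Igfbp5 (vertical axis, CPM) against Igf1 (horizontal axis, CPM) in the 15 libraries, coloured by group and numbered by replicate. WT libraries lie at the upper right, replicate 1 of Mtm1-/y at the lower left, and WT + TAM is split between replicates 1 and 2, at 15.3 CPM of Igf1 each, and replicates 3 and 4 at 5.33 and 4.46.

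Elsewhere in the axis, 60 of 64 listed pathway genes were tested. Of these, 21 were called in Mtm1-/y against WT, 12 higher and 9 lower, and 15 in Mtm1-/y + TAM against WT + TAM, 3 higher and 12 lower. Those are shares to be read against the 30.4 and 20.1% of all genes. Their median log2 fold changes were 0.05 and -0.16. Of the 21 calls, 3 were lost without replicate 1 of Mtm1-/y (Igf2, Pappa2 and Pik3r1), and without replicate 1 of WT + TAM 3 of the 15 (Stc2, Sos1 and Gsk3b). None was called by edgeR in Mtm1-/y + TAM against Mtm1-/y, in WT + TAM against WT or in the interaction, where 9, 13 and 14 genes had an unadjusted p under 0.05 and DESeq2 called 0, 5 and 2.

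In the growth hormone axis, which drives Igf1 transcription, 4 of 7 genes were called in each genotype comparison. The receptor gene Ghr fell from 161 ± 8.68 CPM in WT to 86.6 ± 14.4 in Mtm1-/y (log2 fold change -0.90, adjusted p 0.0003), and was at 184 ± 24.9 in WT + TAM against 86.1 ± 17.0 in Mtm1-/y + TAM (-1.10, adjusted p 0.000223). Jak2, the kinase bound to it, fell by 1.32 and 1.01 on the log2 scale, and Stat5a rose by 0.65 and 0.52. Socs2, a STAT5 target that restrains the receptor, was lower without tamoxifen (-1.36), and Stat5b was lower with it (-0.78).

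Among other ligands, carriers and proteases, 4 of 9 tested genes were called in Mtm1-/y against WT. Igfals, the acid-labile subunit that joins IGF1 and IGFBP3 in serum, was lower with and without tamoxifen (-1.33 and -1.52) at low levels, 1.13 ± 0.0773 CPM in WT and 0.392 ± 0.204 in Mtm1-/y. Htra1, a protease that cuts binding proteins, was lower (-1.50), from 26.1 ± 6.16 to 9.27 ± 2.24 CPM. Igf2, the other IGF ligand, was called higher (1.43), from 1.16 ± 0.358 to 3.15 ± 3.08 CPM, with 7.74 CPM in replicate 1 of Mtm1-/y and 1.33 to 2.10 in replicates 2 to 4. Its log2 fold change was 0.46 without replicate 1 (adjusted p 0.269), and without replicate 1 of WT + TAM the call was lost too (adjusted p 0.0504). Pappa2, which cuts IGFBP3 and IGFBP5, was called higher (4.72) at no more than 32 counts per Mtm1-/y library, and without replicate 1 of Mtm1-/y was at 4.39 (adjusted p 0.056). Under tamoxifen Igfals and the stanniocalcins Stc1 (-2.26) and Stc2 (-1.08), inhibitors of the pappalysin proteases, made up the 3 calls, all lower. Stc2 was at -0.59 without replicate 1 of WT + TAM (adjusted p 0.0895), its call lost.

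Receptor adaptors gave 2 calls of 11 in each genotype comparison. The phosphatase gene Ptpn11 was lower in both (-0.68 and -0.80), Sh2b2 was higher without tamoxifen (0.79), and Sos1 was called lower with it (-0.36, adjusted p 0.0619 without replicate 1 of WT + TAM). Among 14 PI3K and AKT genes, Akt2 rose in both (0.76 and 0.53) and Phlpp1, an AKT phosphatase, fell in both (-0.50 and -0.90), while Pik3r1 (0.99) and Pdpk1 (0.63) were called higher without tamoxifen. Of 13 mTOR genes, Rps6kb2 rose in both (0.67 and 0.48), and Eif4ebp1 (1.47), Akt1s1 (0.34) and Rps6kb1 (-0.26) were called without tamoxifen and Tsc1 (-0.56) with it. Replicate 1 of Mtm1-/y was the highest of its group for Pik3r1, at 83.4 CPM against 22.2 to 67.9, and for Eif4ebp1, at 125 CPM against 30.5 to 45.6. Without it, Pik3r1 was at 0.67 (adjusted p 0.162), its call lost, and Eif4ebp1 at 0.86, still called.

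The AKT substrates of the FOXO family differed within themselves. Foxo1 was higher in Mtm1-/y than in WT (1.73, adjusted p 0.00842), at 66.3 ± 44.0 against 20.1 ± 1.75 CPM, and so was Foxo3 (1.23), at 47.4 ± 23.3 against 20.3 ± 1.73, while Foxo4 was lower without and with tamoxifen (-0.39 and -0.78). In replicate 1 of Mtm1-/y Foxo1 was at 125 CPM against 20.3 to 69.2 in replicates 2 to 4, and Foxo3 at 76.2 against 23.7 to 55.5, and without that library their log2 fold changes were 1.22 and 0.90 (adjusted p 0.0256 and 0.0167). Under tamoxifen the kinase gene Gsk3b was called lower (-0.56, adjusted p 0.0519 without replicate 1 of WT + TAM). Mtm1-/y + TAM stood at 26.8 ± 1.82 CPM for Foxo1 and WT + TAM at 36.3 ± 14.2.

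Markers of other cell types were read beside the 10 genes. Of all genes, 15.5% were called higher and 14.9% lower in Mtm1-/y against WT. In Mtm1-/y + TAM against WT + TAM, 20.1% were called in either direction. Hepatocyte markers, relevant because liver makes IGF1 and several binding proteins, gave 3 higher of 5 in Mtm1-/y against WT. Their sums were 3.61 to 4.27 CPM in WT and 8.14 to 9.61 in Mtm1-/y. With tamoxifen in both genotypes 0 of 5 were called, and the sums overlapped, at 2.90 to 8.66 CPM in WT + TAM and 6.57 to 13.8 in Mtm1-/y + TAM. Skeletal muscle fibre markers gave 2 lower of 10 in Mtm1-/y against WT and 1 lower of 10 in Mtm1-/y + TAM against WT + TAM. In Mtm1-/y against WT, satellite cell and myoblast markers gave 3 higher and 1 lower of 6, with sums of 48.4 to 63.7 CPM in WT and 72.8 to 140.8 in Mtm1-/y. Fibroblast markers gave 1 higher of 8 in that comparison, adipocyte markers 0 of 6, macrophage markers 1 higher of 8 and Schwann cell markers 2 higher of 7. Beyond the values given, their part in the differences of the 10 genes was not tested.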

How the data were processed

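Poly(A) RNA of tibialis anterior muscle from 15 mice was sequenced from stranded TruSeq libraries. The authors deposited raw counts of reads per Ensembl gene, with no normalization. Tools in the submitters' processing notes were HTSeq 0.6.1p1, STAR 2.5.3a, Bowtie2 2.2.8 and cutadapt 1.10, on builds GRCm38 and mm10, with no role stated. Annotation release and strand setting: not given in the sources used here. Groups were taken from the labels, and all 30672 identifiers matched GENCODE M21.

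Counts were tested in edgeR 4.0.16 (R 4.3.3) by the quasi-likelihood F-test, with TMM factors (0.8875 to 1.094) and filterByExpr (minimum count 10), all 4 groups sharing the spread and p-values adjusted by Benjamini-Hochberg over 15533 genes. A count was worth 0.0224 to 0.053 CPM, and CPM per kb used the merged exon length. Alternatives used DESeq2 1.42.0 and limma 3.58.1, other scalings and filters, and libraries left out. The scripts were tested on simulated data. Members, gene lists and the rule for named genes (all members, the called genes of each pathway list, and the 2 genes nearest in pattern to each called member) were chosen with earlier results of these data known. Promoters came from RefSeq (GRCm38.p6), which held all 10 genes.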

Additional observations from a re-analysis of the deposited data

Results flagged for a closer look

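A library far from the rest of its group was found for 4 of 30 combinations of member and group of 4. All 4 were replicate 1 of Mtm1-/y, the highest of its group in each: Igf1r at 38.0 CPM, Igfbp2 at 17.8 CPM, Igfbp3 at 211 CPM and Irs2 at 145 CPM. The gap to the nearest library was 0.866, 0.896, 0.87 and 0.958 of the group's range, above Dixon's critical value for 4 libraries. Mtm1-/y + TAM, with 3 libraries, was not examined in this way.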

How the results depend on the processing

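Igfbp2 stayed called under all 25 alternatives in both genotype comparisons. Igf1 in Mtm1-/y against WT stayed called in 9 of 15 fits that left out a library and in 8 of 10 others, and Igfbp7 in 11 and in 7. No member was called within a genotype or in the interaction under any alternative run. Members called in Mtm1-/y against WT fell to 1 with no count filter, where 13.1% of 30090 genes were called, and ranged from 1 to 4 with a library left out, beside 23.9 to 33% of all genes (1 without WT replicate 3, Mtm1-/y replicate 1 or Mtm1-/y replicate 3). In Mtm1-/y + TAM against WT + TAM they were 3 without both libraries that stand apart and 3 in a fit of the groups compared (29.9 and 20.3% of all genes), and ranged from 1 to 3 with a library left out, beside 10.6 to 26.8% of all genes (2 without WT + TAM replicate 2, 3 without Mtm1-/y replicate 1). With an absolute log2 fold change over 1, 9 and 5 pathway genes were called in these comparisons. With no fold threshold, pathway calls in Mtm1-/y + TAM against WT + TAM were 9 to 18 with a library left out (9 without Mtm1-/y + TAM replicate 2), beside 15 with all libraries. Values of single pathway genes without replicate 1 of Mtm1-/y or of WT + TAM were added after the data were seen. In WT + TAM against WT, pathway calls were 5 with DESeq2, 4 without both libraries that stand apart, and 0 to 2 with a library left out (1 without WT + TAM replicate 2, 2 without Mtm1-/y replicate 1). DESeq2 called 2 in the interaction.

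Signs turned only for values that were not called. Without both libraries that stand apart, log2 fold changes were -0.08 (Igfbp3) and -0.16 (Irs2) in Mtm1-/y against WT, 0.13 (Igfbp4) in Mtm1-/y + TAM against WT + TAM, 0.07 (Igf1r), 1.3 (Igfbp2), -0.16 (Igfbp5), -0.16 (Igfbp7) and 0.04 (Irs2) in Mtm1-/y + TAM against Mtm1-/y, -0.08 (Igfbp2) in WT + TAM against WT and 1.38 (Igfbp2) in the interaction. limma-voom gave 0.17 for Igfbp2 in Mtm1-/y + TAM against Mtm1-/y. With a library left out, ranges that crossed 0 in Mtm1-/y against WT were -0.09 to 0.08 (Irs1), -0.08 to 1.67 (Igfbp3) and -0.16 to 1.83 (Irs2), and in Mtm1-/y + TAM against WT + TAM -0.22 to 0.13 (Igfbp4). In Mtm1-/y + TAM against Mtm1-/y they were -0.35 to 0.07 (Igf1r), -0.63 to 1.3 (Igfbp2), -0.16 to 0.48 (Igfbp5), -0.16 to 0.18 (Igfbp7), -1.96 to 0.04 (Irs2) and -0.05 to 0.1 (Irs1). In WT + TAM against WT they were -0.08 to 1.77 (Igfbp2) and -0.02 to 0.24 (Igfbp3), and in the interaction -0.44 to 0.05 (Igfbp6) and -1.99 to 0.19 (Igfbp2). The cause was not tested. Igfbp2 fell below the filter in the fit of WT + TAM and WT alone, so that alternative gave no value.

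Whether replicate numbers pair the libraries was not settled. Deviations of 21 same-numbered pairs correlated at -0.113 to 0.306 (median -0.00408, 6 over 0.1). Those of other-numbered pairs correlated at -0.338 to 0.214 (median -0.0126), and 5 of 15 libraries matched their own number best. A replicate block gave 2 called members in Mtm1-/y against WT, Igf1 being lost (-1.37, adjusted p 0.0595). The 2 were Igfbp2 (6.81 ± 0.734, adjusted p 9.26e-05) and Igfbp7 (-0.79 ± 0.152, adjusted p 0.00233), both with smaller SEs than without the block. It gave 1 in Mtm1-/y + TAM against WT + TAM, and turned Irs1 to -0.02 in Mtm1-/y + TAM against Mtm1-/y. Depth limits Igfbp2 in WT, where no library held over 3 reads.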
